A study of Mus musculus with 2 samples.

Results

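The potassium channel genes were described in RNA-seq of mouse fetuses at E12.5, with 1 library from the telencephalon and 1 from the whole body. The fetuses were of the ICR stock and wild type. They are the genes whose symbol begins with Kcn, and 97 such genes were analysed of 43437 in the table, while 2 further rows with such names are not analysed here. No treatment was given, both groups share strain and stage, and the labels leave out the number and sex of the fetuses and whether the head was part of the whole body. ICR mice are outbred. The telencephalon, at the front of the embryonic brain, forms the cerebral cortex and the basal ganglia. By the architecture of the protein, the 97 genes comprise 40 voltage-gated channels, 15 inward rectifiers, 13 two-pore channels, 8 calcium-activated channels with their relatives, 17 accessory subunits and 4 RNAs transcribed from the strand opposite a channel gene.

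Potassium channels let potassium leave the cell and hold or restore a negative membrane potential. Voltage-gated channels open on depolarisation and end the action potential, inward rectifiers and two-pore channels set the resting potential, and calcium-activated channels follow a rise in calcium inside the cell. Accessory subunits do not form the pore but bind channels and change their gating or their transport to the membrane. At midgestation the telencephalon holds dividing progenitors and the first young neurons.

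Levels are FPKM as the authors deposited them, a unit that corrects fragments for the length of the transcript and the size of the library, so they may be compared between genes. A gene was counted as measured with 1 FPKM or more in either library, and a difference is the log2 ratio of FPKM + 1, telencephalon over whole body. On this scale a gene at 1 or above is called at least 2-fold higher, and a gene at -1 or below at least 2-fold lower. A measured gene between these limits is called within 2-fold, though the plain FPKM ratio of a weak gene may then exceed 2. Folds printed beside levels are ratios of FPKM without the added 1. Neither group has replicates, so no error between samples and no test can be given, and every value describes these 2 libraries. The steps between low values corresponded to about 22800000 fragments in telencephalon and 29300000 in whole body. Intervals given with a fold are exact 95% binomial intervals of the estimated fragments, scaled by depth, and cover counting error only. Of 10 telencephalic markers 9 were higher in telencephalon, with a summed level of 1000 against 36.4 FPKM in whole body. The heart and skeletal muscle markers summed to 4.6 FPKM in telencephalon against 845 in whole body, and the epithelial and liver markers to 3.42 against 1780. Smooth muscle and pericyte markers summed to 38.4 against 310 FPKM, endothelial markers to 58.7 against 148 and erythroid markers to 2610 against 4763. In bulk tissue, fewer cells of a type and less RNA per cell cannot be told apart, and this holds for each difference below.

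Sequences are shown for 3 genes whose isoforms differed between the libraries, because they mark the stretch of RNA or the start site that differed. Kcnip1 encodes a calcium-binding protein that attaches to A-type potassium channels. Its main isoform in whole body carried a coding exon of 33 bases (chr11:33651540-33651572, minus strand, GRCm38), which the main isoform in telencephalon lacked. The exon stands in capitals between 20 bases of each neighbouring exon, read from the GENCODE M21 transcripts:
Kcnip1 with the exon: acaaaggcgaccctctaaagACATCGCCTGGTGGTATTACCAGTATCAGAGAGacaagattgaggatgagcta
Kcnip1 without the exon: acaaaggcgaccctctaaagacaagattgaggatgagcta

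Kcnab2 encodes a beta subunit of Shaker-type channels, and an isoform from a downstream start made up a large part of it in whole body and almost none in telencephalon. The windows below run from 250 bases before to 50 bases after the RefSeq start sites nearest to those isoforms (GRCm38.p6, minus strand), with every CG dinucleotide in capitals. The upstream window belongs to the isoform that led in telencephalon, and the downstream window to an isoform nearly absent from telencephalon.
Kcnab2 upstream start, chr4:152477500-152477799: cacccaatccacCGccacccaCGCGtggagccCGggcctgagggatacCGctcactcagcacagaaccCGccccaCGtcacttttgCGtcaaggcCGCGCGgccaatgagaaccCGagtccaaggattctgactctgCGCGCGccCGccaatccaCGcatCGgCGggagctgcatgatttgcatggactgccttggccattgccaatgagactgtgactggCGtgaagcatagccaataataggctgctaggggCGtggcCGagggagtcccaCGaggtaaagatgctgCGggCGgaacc
Kcnab2 downstream start, chr4:152448806-152449105: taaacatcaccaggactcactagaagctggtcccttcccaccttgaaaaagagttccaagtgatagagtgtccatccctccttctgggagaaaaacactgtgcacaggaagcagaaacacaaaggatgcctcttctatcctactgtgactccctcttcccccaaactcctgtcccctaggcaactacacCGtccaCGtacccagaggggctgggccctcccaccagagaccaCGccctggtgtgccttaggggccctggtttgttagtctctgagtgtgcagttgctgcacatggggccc

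The upstream Kcnab2 window holds 25 CG dinucleotides and the downstream window 3, against a median of 7 over 32851 RefSeq windows of 300 bases. Kcnh2, the ERG channel gene that repolarises the heart, has a start site inside the gene that gives a shorter isoform, shown with the same marking (minus strand). Its window holds 19 CG dinucleotides.
Kcnh2 internal start, chr5:24329542-24329841: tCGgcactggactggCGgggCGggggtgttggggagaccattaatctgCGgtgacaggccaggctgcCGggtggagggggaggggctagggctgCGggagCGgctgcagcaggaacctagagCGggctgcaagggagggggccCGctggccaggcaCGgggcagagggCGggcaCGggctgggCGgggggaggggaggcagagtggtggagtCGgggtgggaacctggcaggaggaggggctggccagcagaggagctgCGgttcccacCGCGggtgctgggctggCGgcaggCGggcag

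Most of the genes were weakly expressed, and those that differed did so in both directions. Of the 97 genes 65 were measured, of which 34 reached 1 FPKM in both libraries, 15 in telencephalon only and 16 in whole body only. Only 6 reached 10 FPKM in telencephalon and 4 in whole body. In telencephalon 17 of the 65 (26.2%) were past 2-fold higher and 10 (15.4%) past 2-fold lower, while 38 lay within 2-fold. Over all 14987 measured genes of the table, 9.39% were higher and 21.2% lower, and over the protein-coding ones 8.41% and 21.4%. The members' median log2 ratio was 0.25, against -0.16 over all measured genes. One of the 17 higher genes, Kcnq1, was higher through an isoform of 282 bases alone and is described with its family. Across the 65 genes, Spearman's rho between the 2 libraries was 0.209, a description over genes that share both libraries. The floor left out genes low in both libraries, which lowers rho, so its size does not show how alike the libraries are.

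**Figure D1:**
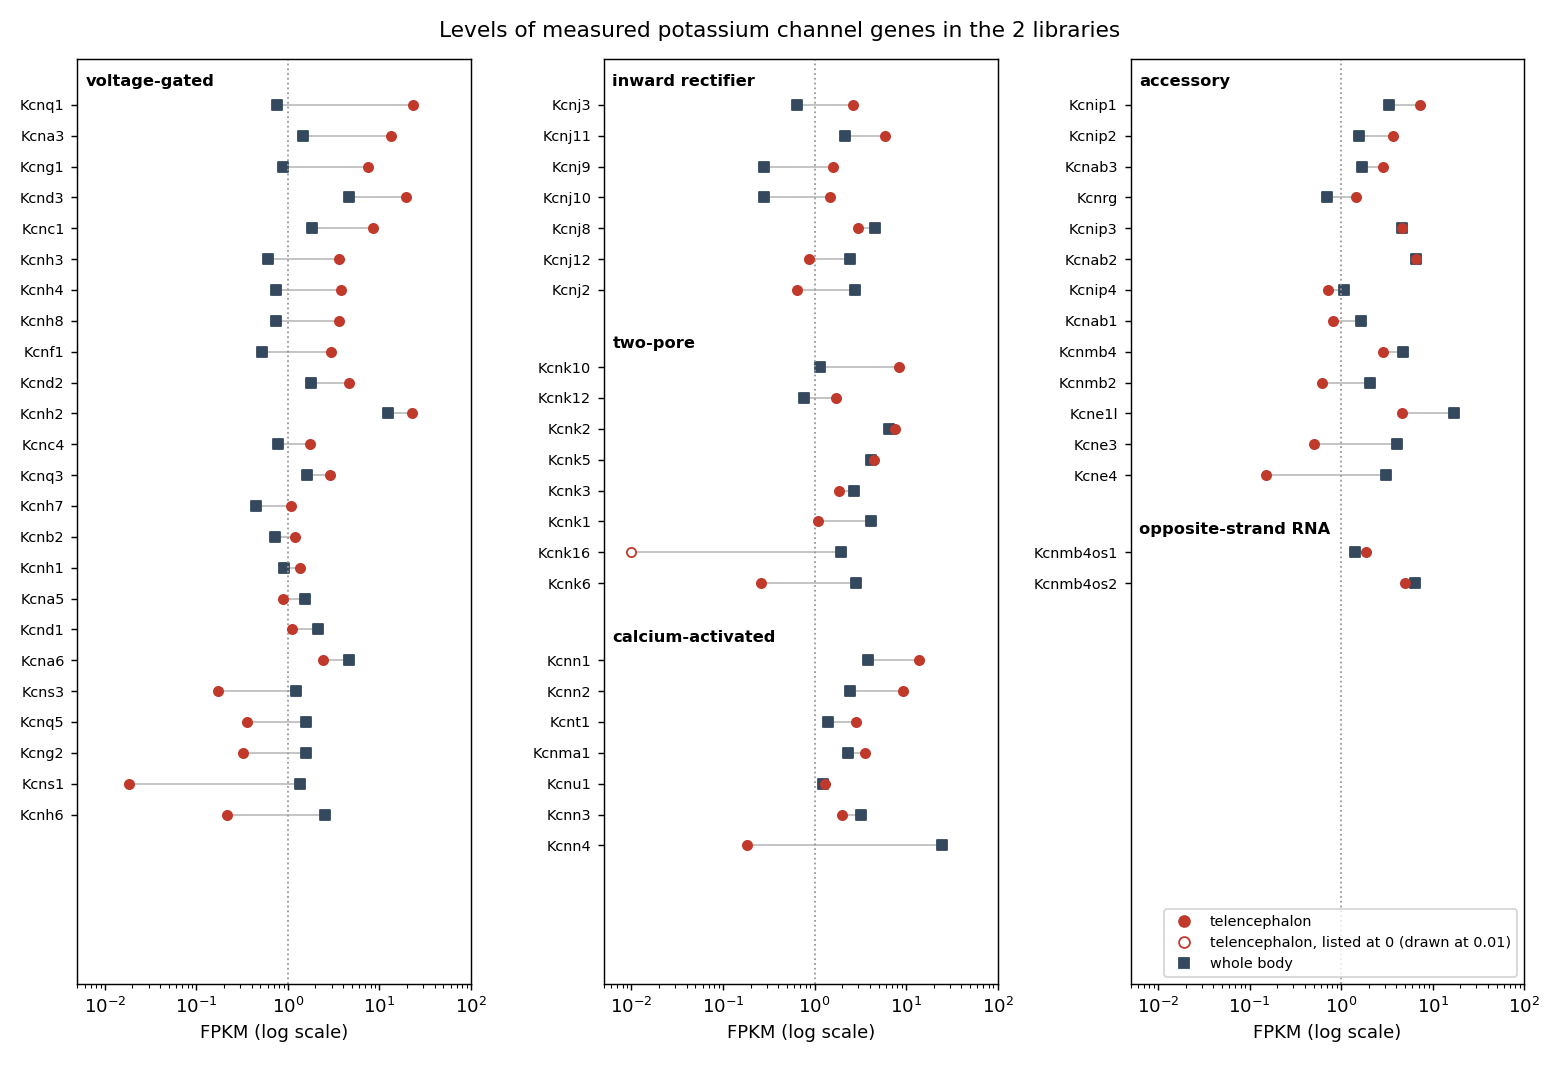
FPKM of 61 of the 65 measured potassium channel genes on a log axis, by class and ordered within a class by log2 ratio, with circles for telencephalon and squares for whole body (1 library each). The dotted line is the floor of 1 FPKM. Kcnn4 stood highest in whole body, and Kcnk16, listed at 0 in telencephalon, is drawn at 0.01.

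The voltage-gated class held most of the genes that were higher in telencephalon. Of 28 measured members 11 were higher, 2 lower and 15 within 2-fold, or 39.3% and 7.14% beside 9.39% and 21.2% of all measured genes. Of the higher genes, Kcnq1, Kcng1, Kcnh3, Kcnh4, Kcnh8 and Kcnf1 passed the floor through telencephalon only. The 2 lower genes, Kcns1 and Kcnh6, passed it through whole body only. Kcnq1 lost its call without isoforms under 300 bases. The median log2 ratio of 0.61 became 0.29 when genes under 1 FPKM were included. Their summed level was 191 FPKM in telencephalon and 69.8 FPKM in whole body, and 169 against 69.8 FPKM without isoforms under 300 bases. Markers of differentiating neurons moved alongside: all 13 measured were higher, from Elavl3 (133 against 21.8 FPKM) and Map2 (313 against 56.6) to Gap43 (109 against 50), with a summed level of 1494 against 413 FPKM. Markers of radial glia, the dividing progenitors, moved alongside too: 8 of 10 were higher, with Sox1 at 40.6 against 1.83 FPKM and Slc1a3 the lowest by ratio at 15.2 against 14.5. Their median log2 ratio was 2.12, against 1.96 for the neuron markers, and their summed level 1685 against 1052 FPKM. Vim, nearly level at 958 against 884 FPKM, made up most of that sum in both libraries. No marker of either list was at 0, and their part in the channel differences was not tested.

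In the KCNQ family, whose channels open slowly and restrain repetitive firing of neurons, the genes described here had different patterns. Kcnq3, a neuronal member, stood at 2.91 FPKM in telencephalon against 1.6 in whole body, within 2-fold on the log2 scale (0.59). Of Kcnq3 in whole body, 0.602 FPKM came from a non-coding isoform of 666 bases, so that its coding isoform stood at 2.91 against 0.995 FPKM. Kcnq5, a further neuronal member, stood at 0.353 against 1.59 FPKM, a log2 ratio of -0.94.

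Kcnq1, the channel of heart and epithelia that pairs with Kcne1, had 23.1 FPKM in telencephalon and 0.767 FPKM in whole body. Of the telencephalon value 95.1% lay on an isoform of 282 bases at 22.0 FPKM, which was listed at 0 in whole body. That isoform is shorter than the 340 bases subtracted from transcript lengths in telencephalon, so its FPKM cannot be turned into fragments. The full-length isoform of 3029 bases stood at 1.13 against 0.767 FPKM, from about 69 and 61 fragments. Without isoforms under 300 bases Kcnq1 lay within 2-fold.

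The Shal and Shaw genes, which give the transient A-type current and the fast currents of rapidly firing neurons, included 3 genes past 2-fold, all higher. Kcnd3 (chromosome 3, 105452330 to 105674002, GRCm38) had a level of 19.4 FPKM in telencephalon and 4.7 FPKM in whole body, with a fragment ratio of 3.72 (3.35 to 4.13). Kcnd2 stood at 4.7 against 1.80 FPKM, just past the threshold at 1.02 on the log2 scale. The X-linked relative Kcnd1 lay the other way at 1.12 against 2.15 FPKM, within 2-fold. Among the Shaw genes Kcnc1 was higher (8.56 against 1.85 FPKM). Kcnc4 (1.76 against 0.785 FPKM) was within 2-fold on the log2 scale of FPKM + 1, and Kcnc2 was under the floor.

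Among the Shaker genes only Kcna3 passed 2-fold. Kcna3, best known from lymphocytes, where it sustains calcium entry, stood at 13.3 FPKM in telencephalon and 1.47 FPKM in whole body. Its log2 ratio of 2.54 rests on about 474 and 68 fragments, a ratio of 8.96 (6.94 to 11.7). Its chromosomal neighbour Kcna2, at a distance of 63.1 kb, did not share the difference, at 0.887 against 0.804 FPKM. Kcna10, a further neighbour, was far under the floor at 0.139 against 0.0214 FPKM. Its fragment ratio of 6.43 (0.719 to 304) rests on about 5 and 1 fragments, too few to tell whether it shared the difference. The other Shaker cluster, on chromosome 6, lay on the whole-body side by gene level. Kcna6 stood at 2.42 against 4.63 FPKM, and Kcna5 at 0.879 against 1.52 FPKM, both within 2-fold on the log2 scale. Most of Kcna6 lay on an isoform annotated for nonsense-mediated decay (1.21 against 2.4 FPKM) and a non-coding one (1.06 against 2.2). Its coding isoforms were weak, at 0.12 against 3.6e-12 FPKM and 0.0305 against 0.0233 FPKM. Kcna1 was under the floor at 0.443 against 0.599 FPKM.

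The silent subunits, which cannot form a channel alone and modify the Shab channels when they join them, split in direction. Kcng1 stood at 7.51 FPKM in telencephalon and 0.873 FPKM in whole body, a fragment ratio of 8.68 (6.99 to 10.9). Kcnf1 stood at 2.98 against 0.518 FPKM, a ratio of 5.71 (4.37 to 7.54). In the opposite direction, Kcns1 stood at 0.0185 against 1.34 FPKM, with about 1 fragment in telencephalon and 94 in whole body. The whole-body side was 73.1 times the telencephalon side by fragments, with an interval from 12.8 to 2919. Kcns3 (0.173 against 1.24 FPKM) and Kcng2 (0.321 against 1.56 FPKM) stopped short of the threshold at -0.93 and -0.95 on the log2 scale of FPKM + 1, which understates the ratio of weak genes. Of 8 peripheral neuron markers 6 were lower and 1 higher in telencephalon, with a summed level of 54.4 against 74.9 FPKM. The higher one, Isl1 (47.5 against 11.6 FPKM), carried most of the telencephalon sum, and Prph was the lowest by ratio at 0.573 against 28.4 FPKM. None was at 0, and their part in these values was not tested. Kcnb2, a Shab pore gene, stood at 1.18 against 0.730 FPKM, within 2-fold.

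In the ether-a-go-go family the 3 ELK genes were past 2-fold higher on the log2 scale of FPKM + 1. No gene of the other branches was past it as higher on that scale. Kcnh3 stood at 3.61 FPKM in telencephalon and 0.606 FPKM in whole body, a ratio of 5.93 (4.47 to 7.98). Kcnh4 stood at 3.77 against 0.736 FPKM and Kcnh8 at 3.60 against 0.744 FPKM, so that these 3 genes lay close together in each library. In the ERG branch Kcnh6 was lower (0.217 against 2.57 FPKM, about 15 and 167 fragments). Kcnh7 stood at 1.08 against 0.444 FPKM, and Kcnh1, of the EAG branch, at 1.35 against 0.915 FPKM. Both lay within 2-fold on the log2 scale of FPKM + 1. By fragments the ratio of Kcnh7 was 2.97 (2.41 to 3.68), and its log2 ratio was 1.12 with a pseudocount of 0.1.

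Kcnh2, the most abundant ERG gene, ranked 3 among all members in telencephalon at 22.7 FPKM, against 12.3 FPKM in whole body. Its log2 ratio of 0.83 was within 2-fold, and scaling to a common upper quartile or rescaling to TPM moved it past the threshold. By fragments the ratio was 1.48 (1.36 to 1.61). The full-length isoform stood at 12 against 6.65 FPKM. The isoform from the internal start printed above ran the other way, at 0.938 FPKM in telencephalon and 2.88 FPKM in whole body, or 4.13% against 23.4% of the gene. Non-coding isoforms of 605 and 710 bases held 32.9% and 10.1% of Kcnh2 in telencephalon, against 16.8% and 5.76% in whole body. In telencephalon these shares rest on about 45 and 19 fragments, beside about 1060 on the full-length isoform. In whole body they rest on about 17 and 8, beside about 760.

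**Figure D2:**
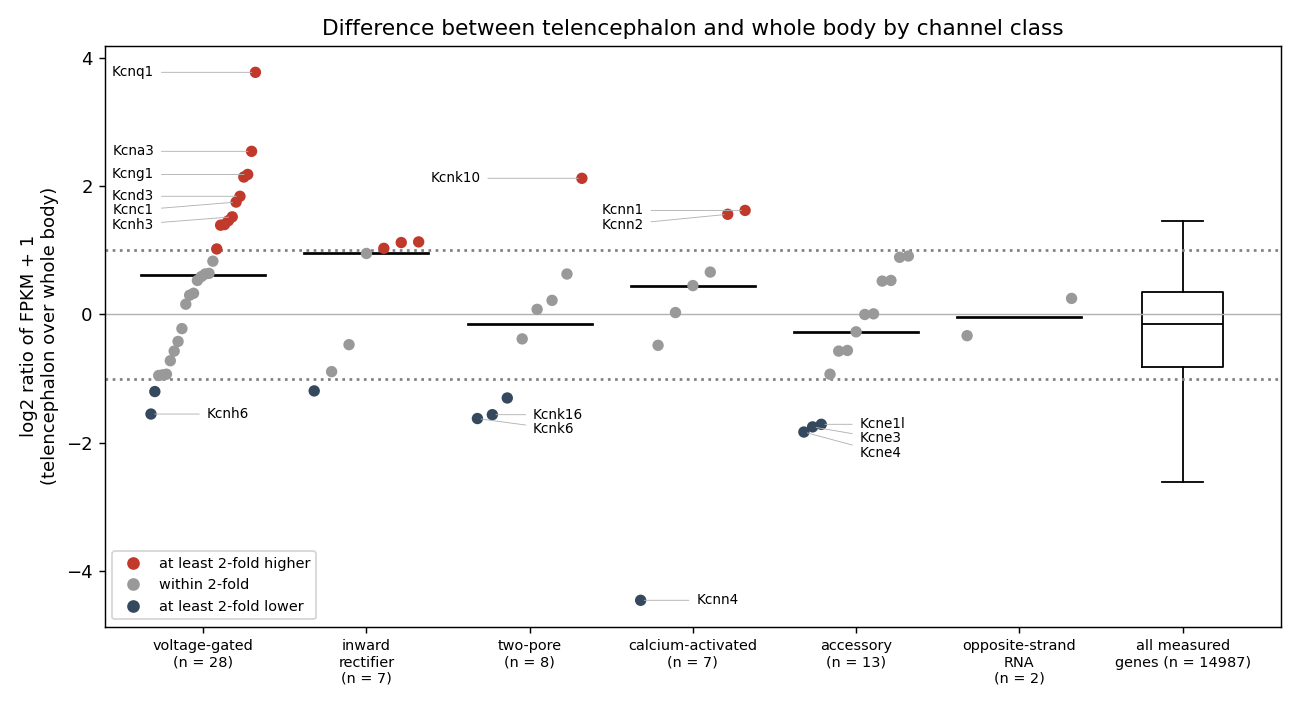
Log2 ratio of FPKM + 1 (telencephalon over whole body) of each measured gene by class, with black lines for the medians and dotted lines at 2-fold. The box shows the quartiles of all 14987 measured genes and its lines reach the 5th and 95th percentiles. The 28 voltage-gated genes had 11 above the upper line, while the 13 accessory genes had none above it and 3 below the lower one.

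The inward rectifiers were weakly expressed in both libraries, and 7 of 15 were measured. Of these 3 were higher in telencephalon, 1 lower and 3 within 2-fold. That is 42.9% higher and 14.3% lower, beside 9.39% and 21.2% of all measured genes. The median log2 ratio of 0.95 became 0.25 in TPM and -0.23 when genes under 1 FPKM were included. The G-protein-gated genes slow neurons and heart cells when inhibitory receptors are active, and 2 of the 4 passed the floor, through telencephalon alone. Kcnj3 stood at 2.60 FPKM in telencephalon and 0.638 FPKM in whole body, and Kcnj9 at 1.61 against 0.279 FPKM. Under the floor, Kcnj6 stood at 0.482 against 0.165 FPKM and Kcnj5 on the other side at 0.623 against 0.824 FPKM. Of Kcnj9 in telencephalon, 1.06 FPKM came from an isoform with a retained intron, against 0.0746 FPKM in whole body. Its coding isoforms stood at 0.374 against 0.0851 FPKM and at 0.169 against 0.120 FPKM. Kcnj10, an astrocyte channel whose gene begins 11.9 kb from Kcnj9, stood at 1.48 against 0.281 FPKM, a log2 ratio of 0.95.

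The pore genes of the ATP-sensitive channel, which couples metabolism to the membrane potential, lay in opposite directions. Kcnj11 stood at 5.88 FPKM in telencephalon and 2.16 FPKM in whole body, from about 77 and 38 fragments on a transcript of 917 bases. Its sulfonylurea receptor Abcc8, encoded 3.76 kb away, stood at 0.809 FPKM in both libraries. Kcnj8, the pore gene of pericytes and vascular muscle, stood at 3.01 against 4.54 FPKM, and its receptor Abcc9, encoded 16.2 kb away, at 1.74 against 4.77 FPKM. Abcc9 was past 2-fold lower (log2 ratio -1.07) and Kcnj8 was not (-0.47). Of 10 smooth muscle and pericyte markers 8 were lower, with a summed level of 38.4 FPKM in telencephalon and 310 FPKM in whole body. Rgs5 (2.67 against 3.41 FPKM) and Notch3 (28 against 36.6) were within 2-fold and Acta2 (0.334 against 154) was the lowest by ratio. None was at 0, and their part in the values of Kcnj8 and Abcc9 was not tested.

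Among the classical inward rectifiers, which stabilise the resting potential of heart and skeletal muscle, Kcnj2 was lower in telencephalon. It stood at 0.636 FPKM in telencephalon and 2.75 FPKM in whole body, and the whole-body side was 4.33 times the telencephalon side by fragments (3.38 to 5.63). Kcnj12 stood at 0.876 against 2.47 FPKM, within 2-fold at -0.89 on the log2 scale of FPKM + 1. Of 13 measured heart and skeletal muscle markers all were lower in telencephalon. They included Ttn (0.0668 against 1.85 FPKM) and Ryr1 (0.532 against 3.10) at the upper end and Actc1 (0.734 against 423) at the lower. Myl3 was listed at 0 in telencephalon, and the part of these cells in the values of Kcnj2 and Kcnj12 was not tested.

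Of the two-pore channels, which leak potassium at rest, 8 of 13 were measured. Of these 1 was higher in telencephalon, 3 lower and 4 within 2-fold, or 12.5% higher and 37.5% lower beside 9.39% and 21.2% of all measured genes. The median of -0.15 became 0.00 with a common upper quartile. Kcnk10, the TREK-2 gene, stood at 8.40 FPKM in telencephalon and 1.16 FPKM in whole body, with a fragment ratio of 7.22 (5.66 to 9.30). Its near relative Kcnk2, the TREK-1 gene, which responds to stretch and lipids, stood at 7.64 against 6.44 FPKM. By gene level the 2 genes were thus alike in telencephalon and several-fold apart in whole body. Of Kcnk2, 2.58 against 1.33 FPKM lay on an isoform annotated for nonsense-mediated decay. For Kcnk10 the deposited values hold only 1 isoform, a coding one, so its isoforms cannot be compared. Kcnk5 was level at 4.45 against 4.16 FPKM. Kcnk12 (1.73 against 0.760 FPKM) and Kcnk3 (1.85 against 2.71 FPKM) were within 2-fold on the log2 scale of FPKM + 1.

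The lower genes of this class included both measured TWIK genes. Kcnk6 stood at 0.257 FPKM in telencephalon and 2.87 FPKM in whole body, from about 22 and 316 fragments, and Kcnk1 at 1.10 against 4.16 FPKM. Kcnk16, known from pancreatic islet cells, was listed at 0 in telencephalon. In whole body it had 1.96 FPKM, from about 34 fragments on a transcript of 916 bases. Kcnk5, encoded 79.6 kb from Kcnk16, did not share its difference. All 8 epithelial and liver markers were lower too, from Epcam (0.593 against 10.3 FPKM) and Cdh1 (0.282 against 8.77) to Afp (1.03 against 843). Krt14 and Krt18 were listed at 0 in telencephalon, and the part of such cells in the values of Kcnk1, Kcnk6 and Kcnk16 was not tested.

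The calcium-activated class held the largest difference of any member toward the whole body. Kcnn4 (chromosome 7, 24370263 to 24386690) encodes the intermediate-conductance channel known from red cells and lymphocytes. Its level was 0.181 FPKM in telencephalon and 24.9 FPKM in whole body. Its log2 ratio was -4.45, and about 7 and 1216 fragments lay behind it. The whole-body side was 135 times the telencephalon side by fragments, with an interval from 65.4 to 337. Kcnn4 ranked 1 among the members in whole body and 78 in telencephalon, and it made up 62.5% of the summed whole-body level of its class. Of 9 erythroid markers 7 were lower as well, and their summed level was 2610 FPKM in telencephalon and 4763 FPKM in whole body. The embryonic globin genes Hba-x (438 against 643 FPKM) and Hbb-y (2153 against 3360) were within 2-fold, and Rhd stood at 0.597 against 81.7 FPKM. None was at 0, and the part of red cells in the value of Kcnn4 was not tested.

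Of the small-conductance relatives of Kcnn4, which produce the pause after an action potential in neurons, Kcnn1 and Kcnn2 were higher in telencephalon. Kcnn1 stood at 14.0 FPKM in telencephalon and 3.88 FPKM in whole body, a fragment ratio of 3.58 (3.20 to 4.01). Kcnn2 stood at 9.20 against 2.46 FPKM, a ratio of 3.89 (3.20 to 4.77). Kcnn3 lay on the same side as Kcnn4, at 2.01 against 3.20 FPKM, but within 2-fold. Non-coding and intron-retaining isoforms held a large part of Kcnn2: the most abundant, of 1347 bases and annotated as non-coding, made up 51.9% of it in telencephalon and 44.4% in whole body. A coding isoform of 3546 bases stood at 2.54 against 0.728 FPKM. Kcnma1, the large-conductance BK channel gene, stood at 3.52 against 2.31 FPKM and Kcnu1 at 1.29 against 1.24 FPKM. Kcnt1, a channel opened by sodium, stood at 2.81 against 1.40 FPKM, with a fragment ratio of 3.25 (2.54 to 4.19). These genes lay within 2-fold on the log2 scale of FPKM + 1.

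**Figure D3:**
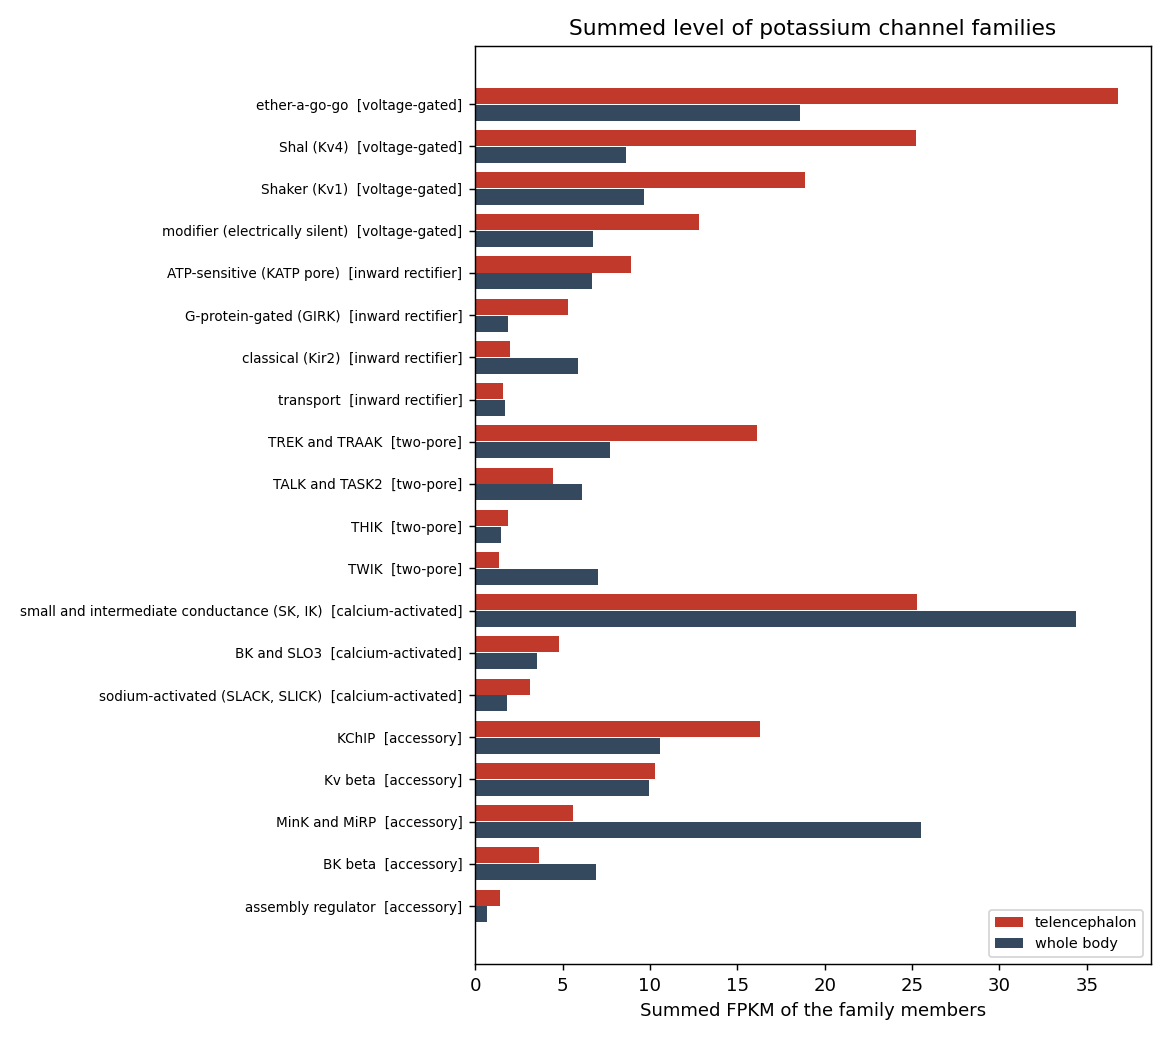
Summed FPKM of the members of potassium channel families in telencephalon and whole body (1 library each), for the families shown. Among these the ether-a-go-go family had the tallest telencephalon bar, at 36.8 FPKM against 18.6 in whole body, and the family of Kcnn4 the tallest whole-body bar, with telencephalon at 25.3 and whole body at 34.4 FPKM.

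The accessory subunits had no member past 2-fold higher in telencephalon. Of 13 measured genes 3 (23.1%) were lower, near the 21.2% of all measured genes, and 10 were within 2-fold. The median log2 ratio of -0.27 became -0.00 when genes under 1 FPKM were included. With a common upper quartile or in TPM, 2 of them, Kcnip1 and Kcnip2, were past 2-fold higher. The 3 lower genes were all of the single-span MinK and MiRP family, which modifies KCNQ and other channels, mainly known from heart and epithelia. Kcne1l, on the X chromosome and also called Kcne5, stood at 4.59 FPKM in telencephalon and 17.3 FPKM in whole body. Kcne3 stood at 0.503 against 4.07 FPKM and Kcne4 at 0.152 against 3.11 FPKM, the telencephalon values from about 11 and 8 fragments. Kcne1 and Kcne2 were under the floor, with Kcne2 at 0.203 against 0.921 FPKM. The family summed to 5.61 FPKM in telencephalon and 25.5 FPKM in whole body.

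The KChIP genes, whose calcium-binding products attach to Shal channels, lay within 2-fold on the log2 scale of FPKM + 1 while their isoforms differed. Kcnip1 stood at 7.22 FPKM in telencephalon and 3.37 FPKM in whole body, a log2 ratio of 0.91. The isoform with the 33-base exon stood at 0.406 FPKM in telencephalon and 2.93 FPKM in whole body. The isoform without it stood at 6.3 against 0.321 FPKM. As shares of the gene, the isoform with the exon made up 5.62% in telencephalon and 87.1% in whole body, and the isoform without it 87.3% against 9.53%. About 14 and 202 fragments lay behind these isoforms in telencephalon, and about 130 and 13 in whole body. The annotated isoforms also differ in where the first exon starts, at 33843585 with the exon and 33843527 without it, and the authors' software divided the reads between them. The exon adds 11 codons and keeps the reading frame.

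Kcnip2 stood at 3.71 FPKM in telencephalon and 1.55 FPKM in whole body, with a coding isoform of 2302 bases at 2.19 against 0.00249 FPKM. Kcnip3 was level at 4.66 against 4.62 FPKM. Within it, the isoform of 2732 bases stood at 3.54 against 1.41 FPKM and the isoform of 1296 bases at 0.615 against 3.03 FPKM. Kcnip4 stood at 0.720 against 1.07 FPKM.

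Of the Kv beta subunits, which bind Shaker channels inside the cell, Kcnab2 was level as a gene. It stood at 6.60 FPKM in telencephalon and 6.61 FPKM in whole body, while its isoforms differed in start site. The isoform of 3533 bases from the upstream start stood at 5.38 against 2.42 FPKM and an isoform of 3922 bases, annotated to start further upstream, at 1.22 against 0.776 FPKM. The isoform of 3574 bases from the downstream start stood at 0.000214 FPKM in telencephalon and 3.19 FPKM in whole body, or 0.00324% against 48.2% of the gene, with about 304 fragments in whole body. The RefSeq start sites of the printed windows lie 24 and 15 bases from the annotated starts of the isoforms of 3533 and 3574 bases. Kcnab1 stood at 0.812 against 1.66 FPKM and Kcnab3 at 2.87 against 1.67 FPKM, on opposite sides and both within 2-fold on the log2 scale. Of Kcnab3, an isoform with a retained intron held 0.295 against 0.911 FPKM. Its coding isoform stood at 2.58 against 0.761 FPKM, further apart than the gene value. The coding isoform of Kcnab1 was also further apart than its gene, at 0.179 against 1.63 FPKM.

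**Figure D4:**
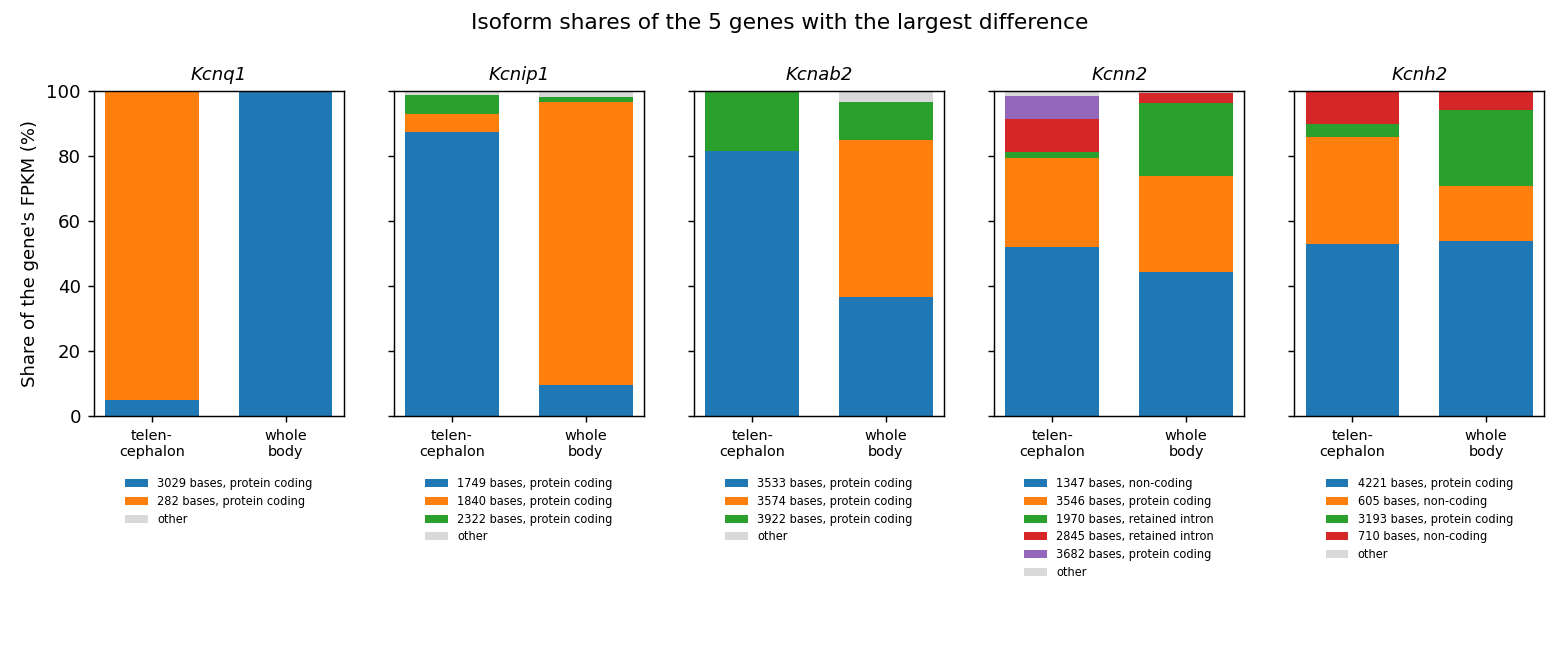
Share of each isoform in the gene's FPKM in telencephalon (left bars) and whole body (right bars), for the 5 genes of 5 FPKM or more in which an isoform's share differed most. Isoforms of at least 5% in either library have a colour. In Kcnip1 the isoform of 1749 bases held 87.3% in telencephalon and 9.53% in whole body, and in Kcnab2 the isoform of 3574 bases is visible in whole body only, with 0.00324% in telencephalon.

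The remaining accessory genes were within 2-fold on the log2 scale of FPKM + 1. Kcnmb4, the beta subunit of BK channels in neurons, stood at 2.87 FPKM in telencephalon and 4.74 FPKM in whole body, and Kcnmb2 at 0.618 against 2.09 FPKM. The log2 ratio of Kcnmb2, -0.93, passed the threshold at -1.61 with a pseudocount of 0.1 and at -1.12 in TPM. Of Kcnmb2, 1.78 FPKM in whole body came from an isoform of 2357 bases that stood at 0.000995 FPKM in telencephalon. Kcnrg, a regulator of channel assembly, stood at 1.44 against 0.702 FPKM. The RNAs opposite Kcnmb4 stood at 4.93 against 6.47 FPKM (Kcnmb4os2) and 1.89 against 1.42 FPKM (Kcnmb4os1), while Kcnd3os was under the floor and Kcnab3os was listed at 0 in both libraries. Strand was not kept in library preparation, so these RNAs and the genes they overlap cannot be told apart where exons overlap.

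Of the 97 genes, 32 were below 1 FPKM in both libraries. By class these were 12 voltage-gated genes, 8 inward rectifiers, 5 two-pore, 1 calcium-activated, 4 accessory and 2 opposite-strand genes. The highest of each class were Kcna2, Kcnj5, Kcnk13 (0.177 FPKM in telencephalon, 0.696 in whole body), Kcnt2 (0.357 and 0.420), Kcne2 and Kcnd3os (0.463 and 0.132). Kcnj1, Kcnk7 and Kcnab3os were listed at 0 in both. At this depth 3 fragments on a transcript of 2000 bases correspond to 0.0793 FPKM in telencephalon and 0.0610 in whole body. Lower values on transcripts of that length rest on fewer than 3 fragments.

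Proteins that work with these channels but carry other names were also compared. Of 26 measured genes of a list of 31 such partners, 7 were higher in telencephalon and 3 lower, where 9.39% and 21.2% of all measured genes were. They had a median log2 ratio of 0.60 against -0.16 over all measured genes. Cntnap2, which clusters Shaker channels along axons, stood at 63.9 FPKM in telencephalon and 7.37 FPKM in whole body. Hcn4, a related pore opened by hyperpolarisation, stood at 13.8 against 3.20 FPKM. Lgi3, a secreted protein found with Shaker channels, was the lowest by ratio at 0.293 against 3.16 FPKM.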

How the data were processed

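Polyadenylated RNA from the telencephalon and the whole body was made into libraries with a kit that does not mark strand and sequenced on a HiSeq 2000, per the labels' protocols. The deposited values are FPKM per gene and per isoform, made by the authors. TopHat, Cufflinks and Cuffdiff were used on GRCm38, per the submitters' processing notes; their versions and the annotation release are not given in the sources used here. Since FPKM are not counts, no count model was run, and with 1 library per group no test was possible.

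Coordinates, isoform lengths and types come from GENCODE M21 (GRCm38), matched on identifiers without version for all 97 genes. Fragments were estimated from the steps of low FPKM in single-isoform genes, fitted over 6679 genes in telencephalon and 6996 in whole body, with 340 and 322 bases subtracted from each length. Of values under 20 fragments in such genes of 2000 bases or more, 88.5% and 90.5% came out whole within 0.1 fragments. The estimates have no molecular identifiers behind them. Genes with an isoform not in that annotation have no fragment estimate. The calls and the depth fit were tested on simulated data.

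A pseudocount of 1 FPKM and a floor of 1 FPKM were used. Alternatives were a pseudocount of 0.1, no floor, a common upper quartile, TPM, and gene values without isoforms under 300 bases. RefSeq start windows were found for 71 of the 97 genes. Any measured member may be named, from other lists the 2 highest and the lowest by ratio, and for isoforms the 5 genes of 5 FPKM or more with the largest share difference. Vim was named besides, for its part in a sum. Isoforms of other members, neighbours and pairs were picked with their values in view. Counts and sums by class cover all members analysed, of which 4 are not reported here one by one. The members and lists were chosen with earlier results of these data known. Python 3.11.15, pandas 2.3.3 and scipy 1.17.1 were used.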

Additional observations from a re-analysis of the deposited data

How the results depend on the processing

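Of the 17 genes called higher 16 and of the 10 called lower all 10 kept that call under each of the 5 alternatives, and of the 38 within 2-fold 26 did; the exception among the higher was Kcnq1, lost without isoforms under 300 bases. No called gene changed direction. With a pseudocount of 0.1 FPKM, 23 genes were higher and 15 lower, and the classes that moved by more than 1.5 times were voltage-gated (5 lower), inward rectifier (2 lower), two-pore (2 higher) and accessory (2 higher). In TPM 21 were higher and 15 lower, with 5 voltage-gated and 2 inward rectifier genes lower and 2 accessory genes higher. A common upper quartile gave 21 higher and 10 lower, with 2 accessory genes higher and a two-pore median of 0.00. These scalings moved the median of all measured genes to -0.02 in TPM and 0.04 with the upper quartile, against -0.16 as reported. The shares of all measured genes moved too. As reported, 9.39% were higher and 21.2% lower, against 11.8% and 25.4% with the pseudocount of 0.1. In TPM they were 12.7% and 21.4%, and with the upper quartile 12% and 18.3%. Of the genes named as within 2-fold, Kcnc4, Kcnh7, Kcnj10, Kcnk12, Kcnip1 and Kcnip2 were past it as higher and Kcnq5, Kcng2, Kcns3, Kcnj12 and Kcnmb2 as lower with the pseudocount of 0.1. Including genes under 1 FPKM turned the inward rectifier median to -0.23 and gave 0.29 for voltage-gated and -0.00 for accessory genes. The cause of the scaling differences was not tested. Depth limits the weakest values, such as Kcns1 with about 1 fragment in telencephalon. No paired analysis was possible because each group has 1 library.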
